A study of Homo sapiens with 4 samples.

Results

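Plakins are very long cytolinker proteins that tie the intermediate filament, actin and microtubule networks to each other and to junctions of the cell membrane. Desmoplakin joins the desmosome plaque, where plakophilins such as PKP3 also sit, to keratin filaments. Envoplakin and periplakin become part of the cornified envelope of stratified epithelia, epiplakin binds keratin bundles of simple epithelia, plectin anchors keratins at hemidesmosomes, and the spectraplakins MACF1 and dystonin bridge actin and microtubules. The plakins were taken as all non-control probes that the array annotates to DSP, EPPK1, EVPL, PPL, MACF1, DST or PLEC1, the older symbol of PLEC. This gave 16 probes of 7 genes among 50238 non-control probes. A probe was tested where the scanner software flagged it as well above background on the 2 arrays of vec, of shpkp3-2 or of both. This kept 13 plakin probes, with at least 1 for each gene, of 30520 tested probes.

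RNA came from HCT116, an established human colorectal carcinoma line, as a vector control clone (vec) and a clone with a stably transfected shRNA plasmid against plakophilin3 (shpkp3-2). Both clones were grown in IMDM under drug selection, given as 5 μg/ml puromycin in the sample labels, whereas the methods name blasticidin. Each clone was measured on 2 single-colour arrays, numbered 1 and 2 for the RNA collection at which vec and shpkp3-2 were both taken, and all 4 arrays lay on 1 slide. Each genotype is 1 clone, so the effect of the shRNA and other differences between these clones cannot be told apart, and p-values measure only the spread between RNA collections. In bulk RNA, fewer cells with a transcript and less of it per cell cannot be told apart either.

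PKP3, the targeted gene, had processed signals of 20850 and 22840 on the vec arrays and of 3414 and 3078 on the shpkp3-2 arrays. It fell by 2.54 on the log2 scale (standard error 0.23, adjusted p = 0.0188 from limma), to 17.2% of vec. Of 7 epithelial markers, EPCAM, CDH1, KRT8, KRT18 and CLDN4 were well above background on all 4 arrays, VIL1 was so on 1 array, and CDX1 on 0. Of 5 fibroblast markers only COL1A1 was detected, at signals of 100 to 178, and the leukocyte marker PTPRC and the endothelial marker CDH5 were well above background on 0 arrays. The leukocyte markers CD3E and CD14, at signals of 17.7 to 29.8, and the endothelial marker PECAM1, at 10.9 to 16.9, were dim but well above background on all 4 arrays. The summed signal per array lay between 1.16e+08 and 1.30e+08. The vec 1 array stood furthest from the others, with a median absolute deviation of 0.28 on the log2 scale against 0.17 to 0.20 for the other arrays.

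Probes of 1 plakin gene read different stretches of it, and for MACF1 and DST their log2 fold changes ran from -0.55 to -0.12 and from -0.20 to 1.23. The 3′ end of each 60-base probe of these genes that was tested, bases 31 to 60, is therefore given here as the deposited files print it, 5′ to 3′. Capitals mark AATAAA, the letters of the polyadenylation signal.
MACF1 NM_033044: ttgcctcctggtaaccctgtaatggatggg
MACF1 NM_012090: aaaaccctgttgaactaaaggcactttata
DST NM_015548, probe 1: gcactgtaacgtgccgggcacacactaaac
DST AK025142: gactcttggatcaaaAATAAAgagctctgg
DST NM_015548, probe 3: ccattaaagatactcaagatttcatccggg
DST NM_001723: tcatttcttcagaactccccttcattgaat
No 2 probes of a plakin gene shared more than 8 bases in a row. The letters AATAAA were found on the sense strand of 1 of the 16 plakin probes, the DST AK025142 probe, and of 4.4% of all 60-base probes. They were found on the antisense strand of 1 plakin probe, that of EVPL, and of 3.74% of all probes. The median GC content was 39.2% over the plakin probes and 41.7% over all probes, and the 3 PLEC1 probes stood apart at 60% to 71.7%.

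To determine whether plakin transcripts differ between the clones, the log2 value of each probe, relative to the 75th percentile of its array, was compared between vec and shpkp3-2. In the fit without the RNA collection, none of the 13 tested plakin probes passed an adjusted p of 0.05 in limma in either direction. In the background of all tested probes 0.396% were called, 0.249% higher and 0.147% lower in shpkp3-2. When the collection was fitted as a block, 1 plakin probe passed, DST AK025142, in a fit that called 1.65% of all tested probes higher. A rule without a test, that each shpkp3-2 array lies at least 2-fold from the vec mean, was met by 0 plakin probes, against 1.12% of all tested probes higher and 0.623% lower. Without adjustment, 3 plakin probes had a p under 0.05 and lower values (both EPPK1 probes and MACF1 NM_033044), against 4.98% of all probes, and 1 had higher values (DST AK025142), against 7.36%. These 4 are set beside 12.3% of all probes in either direction. The log2 fold change was below 0 for 8 of the 13 plakin probes and for 43.1% of all tested probes. The median over the plakin probes was -0.12, and over all tested probes 0.05. Both shpkp3-2 arrays were below both vec arrays for 4 plakin probes, with 18% of all tested probes in that state, and above them for 1, with 27.2%. With 2 arrays per clone, the smallest two-sided p of an exact permutation test for a probe was 0.333.

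**Figure D1:**
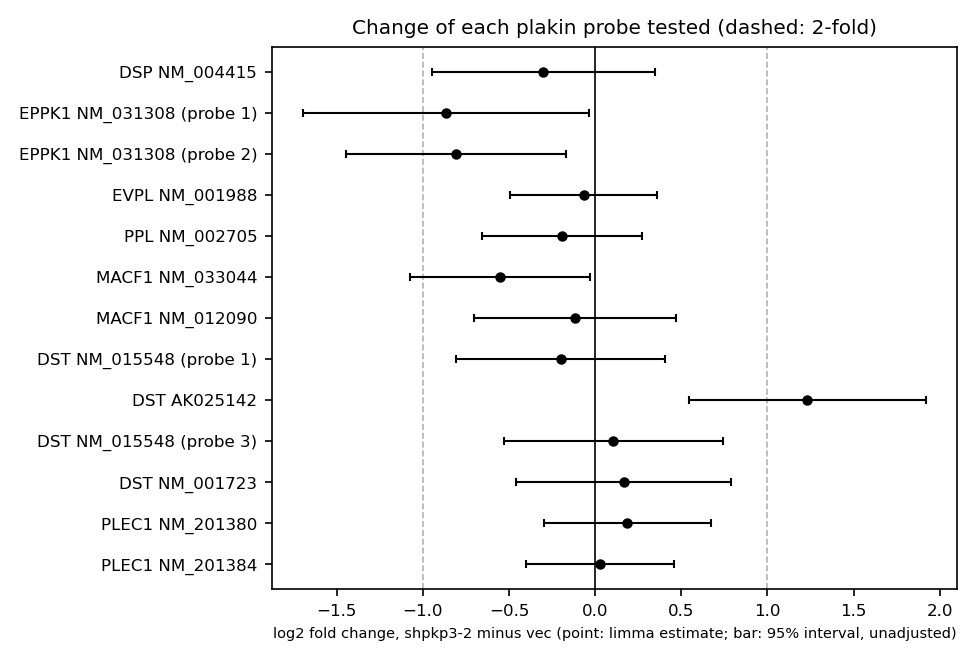
Log2 fold change of each tested plakin probe, shpkp3-2 minus vec, on the x axis, with points for the limma estimate and bars for its unadjusted 95% interval; dashed lines mark 2-fold. Only the intervals of the EPPK1 probes, MACF1 NM_033044 and DST AK025142 leave out 0.

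Epiplakin, EPPK1, is built almost wholly of plectin repeats and associates with keratin filaments. Its values were the lowest in shpkp3-2 relative to vec among the plakins. EPPK1 probe 1 (NM_031308) had signals of 2078 on vec 1, 947 on vec 2, 528 on shpkp3-2 1 and 838 on shpkp3-2 2. The vec arrays were both above the shpkp3-2 arrays, but vec 2 and shpkp3-2 2 lay close together. The log2 fold change was -0.86 (standard error 0.34, 95% interval -1.70 to -0.03, adjusted p = 0.392 from limma), which is 54.9% of vec. EPPK1 probe 2, on the same transcript, had signals of 998 and 522 on the vec arrays and of 312 and 406 on the shpkp3-2 arrays. Its arrays again did not overlap, and the order of the 4 arrays was the same as for probe 1. Its log2 fold change was -0.81 (standard error 0.26, 95% interval -1.44 to -0.17, adjusted p = 0.317 from limma). Most of the EPPK1 difference lay in the first RNA collection: probe 1 differed by -1.58 there and by -0.15 in the second collection, and probe 2 by -1.28 and -0.34. EPPK1 probe 1 had a log2 fold change of -0.49 without vec 1 and of -0.52 without shpkp3-2 1, but of -1.24 without vec 2 and of -1.21 without shpkp3-2 2. For probe 2 these values ran from -1.08 to -0.53.

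EPPK1 was the only plakin whose brightest probe spanned over 1 on the log2 scale. Among 22879 other named probes well above background on all arrays, the profiles nearest to that of EPPK1 were those of CRISPLD2, SLC7A11 and OSMR. CRISPLD2 lay at a distance of 0.0732 in log2 units over the 4 arrays and had a log2 fold change of -0.91. SLC7A11, a cystine transporter, lay at 0.0752 with a log2 fold change of -0.82, and OSMR, a receptor of oncostatin M, at 0.113 with -0.78. Their highest value was on vec 1 and their lowest on shpkp3-2 1, as for EPPK1, which the choice of nearest profiles fixes.

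Desmoplakin, DSP, the obligate linker of desmosomes to keratins, had signals of 9637 on vec 1, 5330 on vec 2, 4221 on shpkp3-2 1 and 5979 on shpkp3-2 2. The clones overlapped, since shpkp3-2 2 lay above vec 2 after scaling. The log2 fold change of DSP was -0.30 (standard error 0.26, 95% interval -0.95 to 0.35, adjusted p = 0.669 from limma), so that the interval ran from 0.518 to 1.27 times the vec level. Within the collections DSP differed by -0.79 and by 0.19, with opposite signs.

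Envoplakin, EVPL, and its partner periplakin, PPL, varied little over the 4 arrays. EVPL had normalized log2 values of 0.99 and 1.05 in vec and of 0.89 and 1.01 in shpkp3-2. These overlapped, with a log2 fold change of -0.07 (95% interval -0.50 to 0.36, adjusted p = 0.900 from limma). PPL had normalized log2 values of -0.21 and -0.13 in vec and of -0.50 and -0.22 in shpkp3-2. The PPL arrays did not overlap, but vec 1 and shpkp3-2 2 were nearly equal, and the log2 fold change was -0.19 (95% interval -0.66 to 0.27, adjusted p = 0.708 from limma). The interval of each gene left out a change of 2-fold in either direction.

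Plectin, PLEC1 on the array, links keratins to integrin β4 at hemidesmosomes and has several alternative first exons. The probe of transcript NM_201380 had signals of 2060 and 1374 in vec and of 1504 and 1819 in shpkp3-2. The clones overlapped, and the log2 fold change was 0.19 (95% interval -0.30 to 0.67, adjusted p = 0.730 from limma). The NM_201384 probe was dim, at signals of 27.1 and 21.5 in vec and of 22.4 and 20.1 in shpkp3-2, with a log2 fold change of 0.03 (95% interval -0.40 to 0.46, adjusted p = 0.965 from limma). The NM_201382 probe was well above background on 0 of the arrays and was not tested.

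MACF1, which guides microtubules along actin, had 2 tested probes. The NM_033044 probe had signals of 777 and 459 in vec and of 325 and 380 in shpkp3-2. The arrays did not overlap, and vec 1 was again the highest and shpkp3-2 1 the lowest. The log2 fold change was -0.55 (standard error 0.21, 95% interval -1.08 to -0.03, adjusted p = 0.385 from limma), and it was -0.37 without vec 1. The differences within the collections were -0.86 and -0.25. The dimmer NM_012090 probe had signals of 80.5 and 68.0 in vec and of 48.8 and 71.1 in shpkp3-2, which overlapped after scaling. Its log2 fold change was -0.12 (95% interval -0.70 to 0.47, adjusted p = 0.868 from limma).

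Dystonin, DST, has epithelial forms in hemidesmosomes and neuronal and muscle forms, and the array holds 6 probes for it. The brightest, NM_015548 probe 1, had signals of 304 and 167 in vec and of 148 and 194 in shpkp3-2. These overlapped, with a log2 fold change of -0.20 (95% interval -0.81 to 0.41, adjusted p = 0.767 from limma). The AK025142 probe, the one with AATAAA in the sequence printed above, had signals of 44.5 and 27.4 in vec and of 55.8 and 89.8 in shpkp3-2. Both shpkp3-2 arrays were above both vec arrays, and the AK025142 probe was the only tested plakin probe in that state. Its log2 fold change was 1.23 (standard error 0.28, 95% interval 0.54 to 1.92, adjusted p = 0.199 from limma), with differences of 0.72 and 1.74 within the collections. With the collection as a replicate block the AK025142 probe passed the threshold (adjusted p = 0.0117 from limma), as the only plakin probe to do so, in a fit that called 1.65% of all tested probes higher and 1.11% lower. With normexp background correction its log2 fold change was 0.67 (adjusted p = 0.163). Over all alternatives its adjusted p ranged from 0.0117 to 0.574.

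The other tested DST probes did not separate the clones. NM_015548 probe 3 had signals of 34.5 and 42.1 in vec and of 36.2 and 34.6 in shpkp3-2, with a log2 fold change of 0.11 (95% interval -0.53 to 0.74). NM_001723, a transcript of the epithelial form, had signals of 47.3 and 23.3 in vec and of 34.2 and 30.3 in shpkp3-2, with a log2 fold change of 0.17 (95% interval -0.46 to 0.79). The NM_020388 and AF165191 probes of DST were well above background on 0 of the arrays and were not tested. A test of each probe against the other probes of its gene (limma diffSplice) called 0 of the tested EPPK1, MACF1, DST and PLEC1 probes. It called 0.0175% of 17139 probes. DSP, EVPL and PPL, with 1 probe each, could not enter it. The AK025142 probe differed from the other DST probes by 1.21 on the log2 scale there (adjusted p = 0.680 from limma diffSplice).

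**Figure D2:**
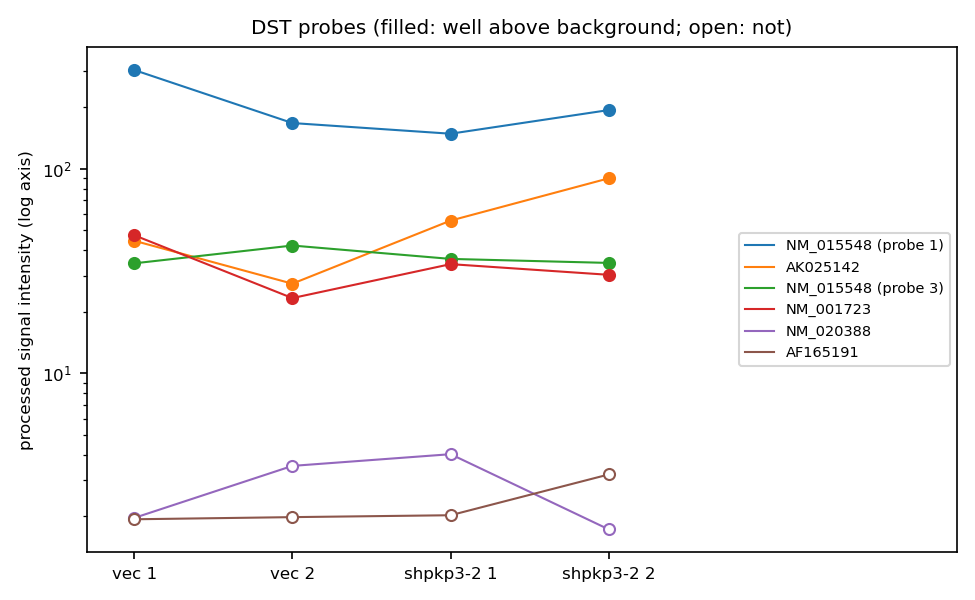
Processed signal intensity of the 6 DST probes on each array, on a log axis, with lines joining the values of a probe; filled points are well above background. The AK025142 probe is the only one with both shpkp3-2 arrays above both vec arrays among those detected, at 55.8 and 89.8 against 44.5 and 27.4.

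**Figure D3:**
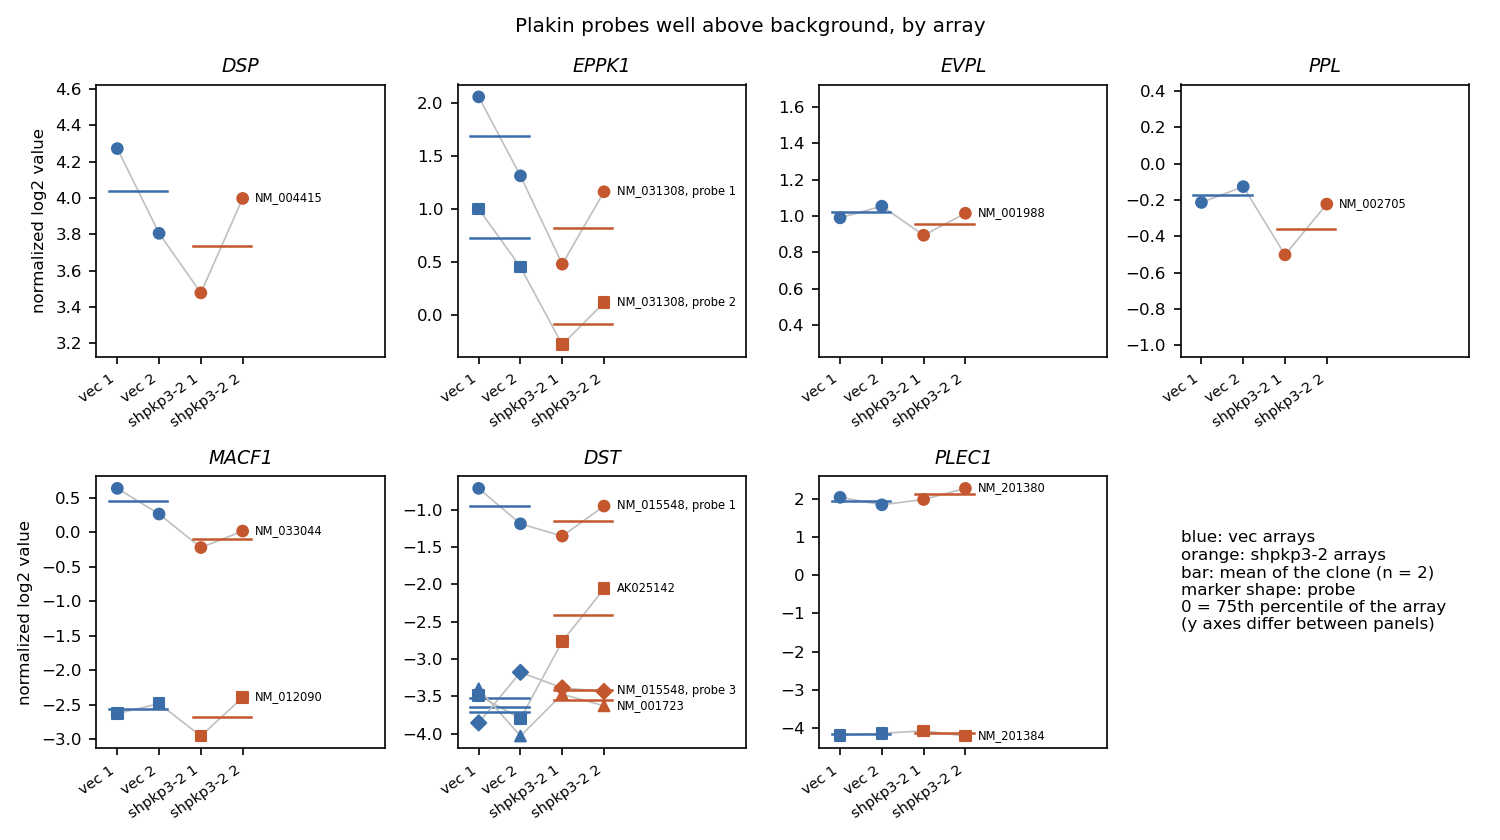
Normalized log2 value of each tested plakin probe by array (0 is the 75th percentile of the array), with bars for the mean of each clone (n = 2) and y axes that differ between panels. DSP, both EPPK1 probes, MACF1 NM_033044 and DST NM_015548 probe 1 have their highest value on vec 1 and their lowest on shpkp3-2 1.

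The RNA collections differed in how plakin probes compared. In the first collection 10 of the 13 tested probes were lower in shpkp3-2 than in vec, against 42.4% of all tested probes, and the plakin median was -0.29, against 0.09 over all tested probes. In the second collection 7 of 13 were lower, against 47.9% of all, and the plakin median was -0.04, against 0.02. The difference was lower in the first collection than in the second for 11 of the 13 plakin probes and for 45.5% of all tested probes. The sign was negative in both collections for 5 probes (both EPPK1 probes, EVPL, PPL and MACF1 NM_033044) and positive in both for DST AK025142. The share of all tested probes with the same sign in both collections was not counted. The vec 1 array gave the highest of the 4 values for 6 plakin probes, with 26.6% of all tested probes in that state. For the plakins the shpkp3-2 1 array stood furthest apart, with a median deviation from the other arrays of -0.31 on the log2 scale, against 0.07 for vec 1, 0.08 for vec 2 and 0.04 for shpkp3-2 2. It lay below shpkp3-2 2 for 10 of the 13 plakin probes and for 48.1% of all tested probes. The plakin median was -0.0068 without shpkp3-2 1 and -0.10 without vec 1.

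**Figure D4:**
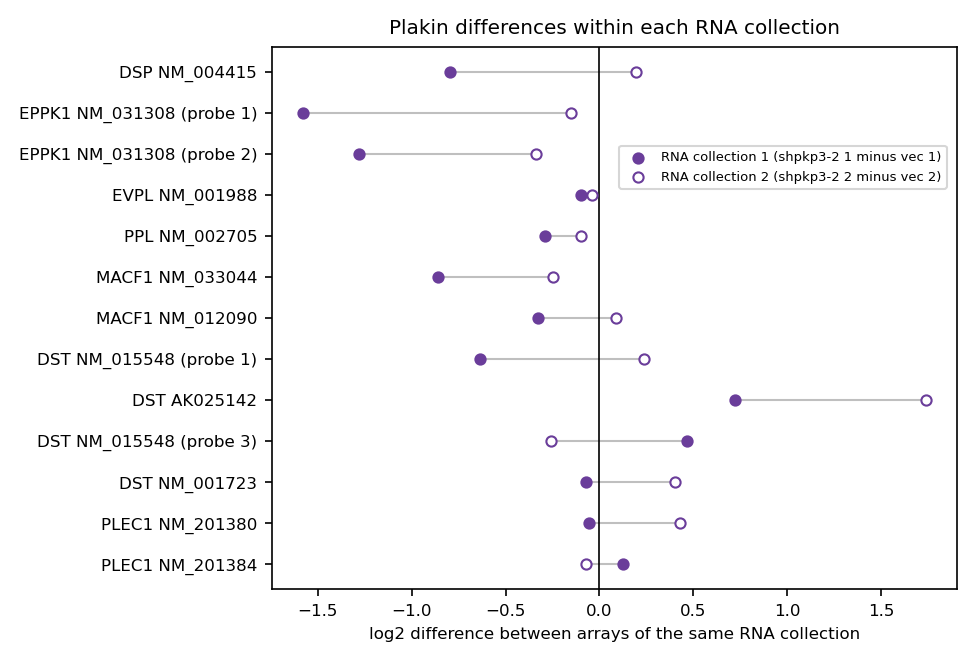
Log2 difference of each tested plakin probe between shpkp3-2 and vec arrays of the same RNA collection, with filled points for collection 1 and open points for collection 2. Filled points lie to the left of open points for 11 of the 13 probes.

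The proteins that plakins bind were described from 5 lists with 64 genes on the array, of which 51 were tested. Of these, limma called 2 higher, the keratins KRT7 and KRT23, against 0.249% of all tested probes. The 1 called lower, against 0.147% of all tested probes, was PKP3, the target of the shRNA. With the collection as a replicate block, limma called 4 higher, adding COL17A1 (adjusted p = 0.00272) and SPRR3 (adjusted p = 0.00746), and 2 lower, adding VIM (adjusted p = 0.00821). That fit called 1.65% of all tested probes higher and 1.11% lower, and its p-values lean on the spread pooled over all probes. COL17A1 also passed with normexp background correction (adjusted p = 0.0203) and with a trended and robust prior (adjusted p = 0.0326). KRT7, a keratin of simple epithelia, had signals of 14.7 and 8.41 in vec, well above background on 1 of these arrays, and of 109 and 126 in shpkp3-2. It rose by 3.61 on the log2 scale (adjusted p = 0.0051 from limma), and by 1.52 with normexp background correction. KRT7 entered the test through its shpkp3-2 arrays alone, where it is high, and was not tested when detection on all 4 arrays was required, so the size of its change rests on vec signals at the edge of detection. KRT7 also did not pass the threshold with no detection filter or with the weaker detection flag. KRT23 rose by 1.58 (adjusted p = 0.0379 from limma), with signals of 2391 and 1845 in vec and of 5698 and 5131 in shpkp3-2, and among other settings did not pass the threshold with quantile normalization, with no detection filter, with the weaker detection flag, without vec 2, without shpkp3-2 1 or without shpkp3-2 2, where the spread between arrays comes from the other clone alone.

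Over the 11 tested intermediate filament genes, 9 had values above 0, where 43.1% of all tested probes were below 0. Their median log2 fold change was 0.21. An unadjusted p under 0.05 was reached by 2 with higher values (KRT7 and KRT23), against 7.36% of all tested probes, and by 2 with lower values (VIM and KRT17), against 4.98%. KRT17, a keratin of stratified epithelia, differed by -0.97 on the log2 scale (adjusted p = 0.346 from limma), but it entered the test through its vec arrays alone and was well above background on 1 of the shpkp3-2 arrays. The lowest was VIM, vimentin, at -1.24 (adjusted p = 0.143 from limma). Among the 8 tested desmosome genes the median was 0.00, with 4 above and 4 below 0. The highest was the desmosomal cadherin DSC3 at 0.43 (adjusted p = 0.489 from limma), and PKP3 was the only one called. The 7 hemidesmosome genes were all tested, and 0 were called by limma, while 4 had an unadjusted p under 0.05 and higher values, against 7.36% of all tested probes. Their median was 0.49, from 1.36 for COL17A1, the transmembrane collagen bound by plectin and the epithelial form of dystonin (adjusted p = 0.0683 from limma), to -0.44 for ITGB4, the integrin β4 chain (adjusted p = 0.506).

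In the cornified envelope list 10 of 15 genes were tested, with 0 called by limma, 3 with an unadjusted p under 0.05 and higher values, against 7.36% of all tested probes, and a median of 0.12. The 3 were SPRR3, ANXA1 and LOR, the last 2 named after their values were seen. LOR entered the test through its shpkp3-2 arrays alone and was well above background on 1 of the vec arrays. SPRR3, a small proline-rich envelope precursor, was highest at 1.33 (adjusted p = 0.236 from limma), and TGM1, the transglutaminase that cross-links envelope proteins, was lowest at -0.50 (adjusted p = 0.448). Of 15 tested microtubule and actin partners, 12 had values below 0, against 43.1% of all tested probes. Their median was -0.18 and 0 were called by limma. An unadjusted p under 0.05 with lower values was reached by 1, against 4.98% of all tested probes. DIAPH1, a formin, was highest at 0.47 (adjusted p = 0.512 from limma), and MAPRE3, a microtubule end-binding protein, was lowest at -1.10 (adjusted p = 0.475), but it entered the test through its vec arrays alone and was well above background on 1 of the shpkp3-2 arrays. The medians of these lists are set beside 0.05 over all tested probes and carry no test of their own.

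**Figure D5:**
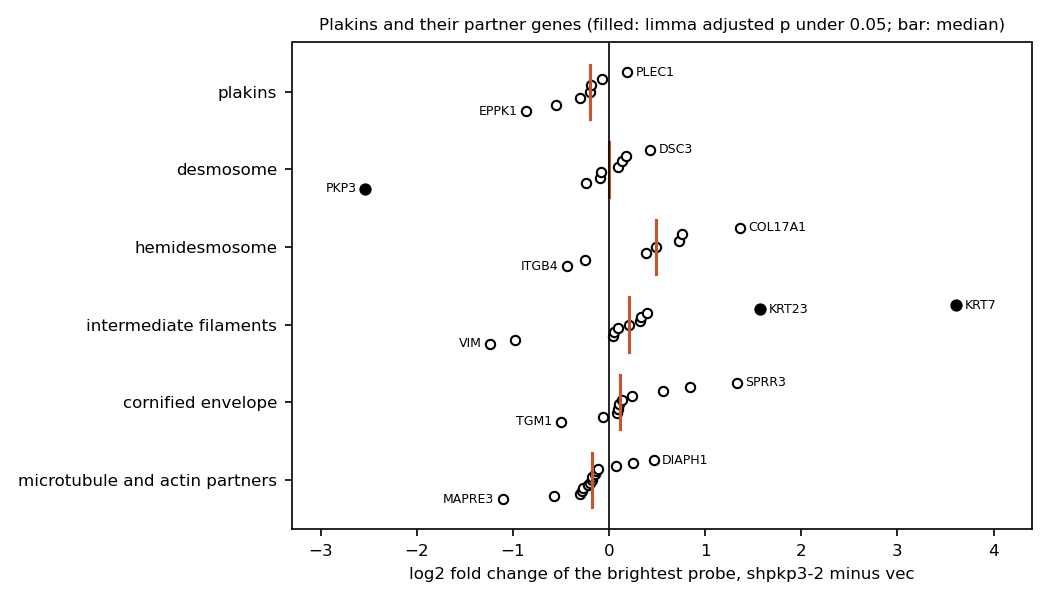
Log2 fold change of the brightest probe of each tested plakin and partner gene, shpkp3-2 minus vec; filled points have an adjusted p under 0.05 in limma, bars are list medians, and the highest and lowest gene of each partner list is named. The filled points are PKP3, KRT23 and KRT7, and the hemidesmosome median lies at 0.49.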

How the data were processed

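Total RNA was labelled with Cy3 and hybridised to single-colour Agilent arrays with 60-base probes. The values are the processed signal intensity that the authors deposited from Feature Extraction (version 9.1 per the labels' processing notes, 10.7.3.1 per the file headers), already corrected for background, with flags deposited as 0 or 1. Control spots and non-uniformity outliers were left out, and spots of a probe averaged. Log2 intensities minus the 75th percentile of each array were fitted with limma 3.58.1 in R 4.3.3, over the 30520 probes detected on the 2 arrays of either clone, and p-values were adjusted over all of them (Benjamini-Hochberg). On this scale a probe's level cannot be set against that of another probe. The brightest probe stood for a gene. Figures and counts used Python 3.11.15, numpy 2.4.6, pandas 2.3.3 and matplotlib 3.10.9. The number of arrays limits the precision. The number of an array marks a shared RNA collection, per the series design, and it was therefore fitted as a block in an alternative. On so few arrays the block leaves little to estimate a probe's own spread, so its p-values lean on the spread pooled over all probes. Deviations of same-numbered arrays from their clone's mean correlated at -0.20. The diffSplice test takes 1 spread per gene, and on simulated data it called more unshifted probes than its threshold allows.

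Named are all plakin probes, PKP3, the markers, each partner gene called or with the largest rise or fall of its list, and the 3 profiles nearest to a plakin that spans over 1. Partner genes outside this rule are given as counts, except ANXA1, LOR and KRT17, which were named after their values were seen. Where an array was left out, the lone array of that clone was assumed to vary like the arrays of the other clone, which alone gave the spread between arrays. Members and lists were chosen with earlier results of these data known. The alternatives were normexp background correction with an offset of 50, quantile normalization, median centring, other detection filters, the block, each array left out, a trended and robust prior, the mean of a gene's probes, and other thresholds. The sequences are as deposited, and of the 16 probe transcripts 12 matched the RefSeq gene table. Arrays of other cell lines were not analysed here.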

Additional observations from a re-analysis of the deposited data

How the results depend on the processing

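No plakin gene's brightest probe passed an adjusted p of 0.05 in limma under any alternative tried. EPPK1, DSP, EVPL, PPL, MACF1 and PLEC1 kept their direction in all of them. When single arrays were dropped, DSP ranged from -0.56 (without shpkp3-2 2) to -0.041 (without shpkp3-2 1), PPL from -0.33 to -0.052 and EVPL from -0.13 to -0.0068 (without the same arrays), and PLEC1 from 0.041 (without shpkp3-2 2) to 0.33 (without shpkp3-2 1), so several came close to 0. DST turned to 0.33 (from -0.20) with the mean of its probes, and it ranged from -0.44 (without vec 2) to 0.037 (without vec 1) when single arrays were dropped, with 0.00 without shpkp3-2 1. When single arrays were dropped, the plakin median ranged from -0.33 (without shpkp3-2 2) to -0.0068 (without shpkp3-2 1). With the RNA collection as a replicate block, limma called 1 plakin probe higher (DST AK025142, with no other plakin call changed), 4 partner genes higher and 2 lower, and 841 probes in all against 121. A crossed pairing, chosen after seeing the data because the correlation of same-numbered arrays was -0.20, called 104 probes in all and 1 partner gene higher. Partner genes called higher numbered 1 with quantile normalization, 1 with probes detected on all 4 arrays, 0 with no filter, 0 with the weaker detection flag, 3 with normexp, 3 with the trended and robust prior, and 1 to 2 with each array left out. Partner genes called lower, in the main fit PKP3 alone, the target of the shRNA, numbered 0 with no filter and 0 with the weaker flag. At an unadjusted p under 0.05, 1 plakin probe was higher and 3 were lower. The rule that asks each shpkp3-2 array to differ at least 2-fold from the vec mean was met by 0 plakin probes. At 1.5-fold it was met by 1 higher and 1 lower, and with each array left out by 0 to 1 higher (1 without vec 1, 1 without shpkp3-2 1) and by 0 to 2 lower (2 without shpkp3-2 2). For the 1.5-fold rule and for arrays left out, the share of all tested probes meeting the rule was not counted. Those plakin counts therefore have no background beside them. The cause of these changes was not tested. Over all probes limma called 190 with normexp, 74 with quantile normalization, 18 with no filter, 2 with the weaker flag and 46 with detection on all 4 arrays, and 262 to 313 with each array left out, in fits whose spread comes from the other clone alone and which are therefore not comparable with the full fit. Of 203 values recomputed, 179 kept their direction and call or stayed close, 21 moved and 3 reversed. The intervals of 4 plakin probes reached past a 2-fold change, which were both EPPK1 probes, MACF1 NM_033044 and DST AK025142.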

Other observations

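EVPLL, an envoplakin-like gene that is no plakin of the list and was chosen after its values were seen, had 2 probes well above background on all 4 arrays. Its dimmer probe had signals of 20.8 and 18.0 in vec and of 18.2 and 19.2 in shpkp3-2, and differed by 0.16 on the log2 scale (adjusted p = 0.741 from limma). The other EVPLL probe had signals of 41.0 and 47.5 in vec and of 36.8 and 40.0 in shpkp3-2, and differed by 0.01 on the log2 scale (adjusted p = 0.990 from limma). After scaling, the shpkp3-2 arrays lay just above the vec arrays for the dimmer probe and between them for the other.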
